A study of Mus musculus with 629 samples.

Results

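Among 215 mouse brain cells labelled microglia, 67 had summed levels of macrophage marker genes in the lower part of the range of cells labelled macrophages. These 67 cells, called high-sum microglia here, were chosen by a measured value: the summed CPM, counts scaled to a fixed total per cell, of 16 macrophage genes had to reach 18900. The 16 genes were Mrc1, Cd163, Lyve1, F13a1, Cbr2, Pf4, Ms4a7, Stab1, Siglec1, Folr2, Dab2, Cd209f, Clec4n, Colec12, Ms4a6c and Clec10a. The high-sum microglia were 31.2% of the microglia (exact 95% interval 25.0% to 37.8%) and were drawn from 629 cells in all. The remaining microglia numbered 148, the macrophages 400 and cells of a type labelled only 7 numbered 14.

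Single cells came from the brains of adult C57BL/6 mice that were Notch3 knockout (KO), heterozygous (Het) or wild-type (WT), sorted by fluorescence into 384-well plates and sequenced with the full-length SMART-seq2 method. All were from a reporter line in which SM22-Cre, a Cre driver of smooth muscle, switches on tdTomato from the Rosa26 locus. Neither the sorting gate for these cells nor the animal of each cell is given in the labels. Every read is a PCR copy in this method, with no molecular identifier. Ratios between sets were taken within pools, meaning cells that shared genotype and plate, of which there were 8 on 6 plates. Medians, ranges and counts over all cells of a set mix the pools.

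Microglia are the resident phagocytes of the brain tissue itself, seeded in the embryo and kept by signals of the tissue that maintain genes such as the transcription factor Sall1, the purinergic receptor P2ry12 and the surface protein Tmem119. Macrophages at the borders of the brain, around vessels and in the meninges, instead carry the mannose receptor Mrc1, the haemoglobin scavenger receptor Cd163, the hyaluronan receptor Lyve1 and the scavenger receptor Stab1. Both kinds of cell depend on Csf1r and make complement C1q, so these shared genes do not tell them apart.

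Both marker programs were present in every high-sum cell. Counts of Mrc1, Stab1, P2ry12 and Tmem119 were found together in 67 of 67 high-sum microglia, in 147 of 148 other microglia and in 310 of 400 macrophages. The summed level of the 16 macrophage genes had a median of 25160 CPM in high-sum microglia (18954 to 36652), 10861 CPM in other microglia (134 to 18845) and 36077 CPM in macrophages (8116 to 66911). The label of a macrophage range held for the lower part of that range: 379 of 400 macrophages were at or over 18900 CPM, but 12 of 67 high-sum cells reached the 25th percentile of macrophages and 1 reached their median. The summed level of 12 microglia-restricted genes had a median of 20247 CPM in high-sum microglia (8343 to 35821), 31652 CPM in other microglia (2723 to 65540) and 1355 CPM in macrophages (12.5 to 15372). All 67 high-sum cells lay inside the range of the other microglia for this sum, and 4 of 67 were at or over the other microglia's median. Of the 400 macrophages, 5 reached the lowest high-sum cell and 0 reached the median of the other microglia, which allows a share of up to 0.75%. The microglial sum was the larger of the pair in 16 of 67 high-sum cells, against 142 of 148 other microglia and 1 of 400 macrophages.

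**Figure D1:**
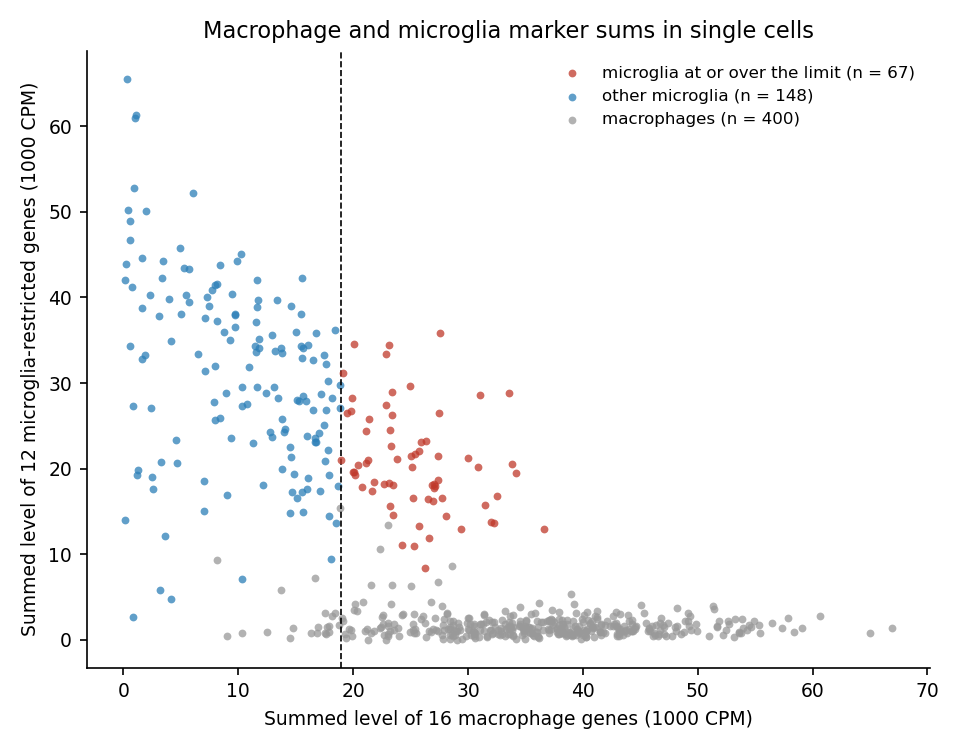
Each point is a cell, placed by the summed CPM of the 16 macrophage genes (x axis, 1000 CPM) and of the 12 microglia-restricted genes (y axis, 1000 CPM), and the dashed line is the limit of 18900 CPM. High-sum microglia lie between the other microglia and the macrophages, with microglial sums of 8343 to 35821 CPM, and join the other microglia without a gap at the line.

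The limit did not fall in a gap. The 5 microglia just outside it had sums of 18411 to 18845 CPM and the 5 just inside had 18954 to 19932 CPM. The step across the limit was 109 CPM, beside a median step of 105 CPM between neighbouring cells around it, and 19 microglia lay within 10% below the limit and 11 within 10% above it. The number of cells rests on the limit and on the total used: it was 38 at a limit of 23625 CPM, 107 at 15120 CPM, and 11 at 18900 CPM with Rn18s kept in the total. Keeping Rn18s lowers every sum while the limit stays the same. At the other end, 13 of 148 other microglia had a macrophage sum under 1000 CPM. The cell with the highest sum, a KO cell of plate 060s, had 36652 CPM of macrophage genes and 12962 CPM of microglia-restricted genes, with 2809 counts of Mrc1, 2290 of Stab1, 509 of P2ry12 and 1800 of Tmem119 among 368767 gene counts. Several genes made up the sum: 13 to 16 of the 16 had a count in each high-sum cell, all 16 in 30 cells, and the gene with the most counts supplied a median of 27.7% of the sum. With that gene left out, which lowers every sum, 29 microglia reached the unchanged limit. The leading gene was Stab1 in 30 cells, Mrc1 in 28 and Dab2, F13a1 or Lyve1 in the other 9.

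High-sum cells occurred in every genotype and pool. They were 23 of 78 KO microglia (29.5%, exact 95% interval 19.7% to 40.9%), 19 of 58 Het microglia (32.8%, 21.0% to 46.3%) and 25 of 79 WT microglia (31.6%, 21.6% to 43.1%). Over pools the share ran from 6 of 28 (21.4%, 8.30% to 41.0%) in Het cells of plate 529s to 8 of 15 (53.3%, 26.6% to 78.7%) in Het cells of plate 056s, and the intervals of the pools overlapped. These intervals cover counting error only, and cells of 1 pool may share an animal. Among high-sum cells the median macrophage sum was 25915 CPM in KO, 23365 CPM in Het and 24254 CPM in WT, and the median microglial sum was 18403 CPM in KO, 21110 CPM in Het and 19554 CPM in WT. A genotype within a cell type counts as 1 sample here, so no genotype was tested against another.

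**Figure D2:**
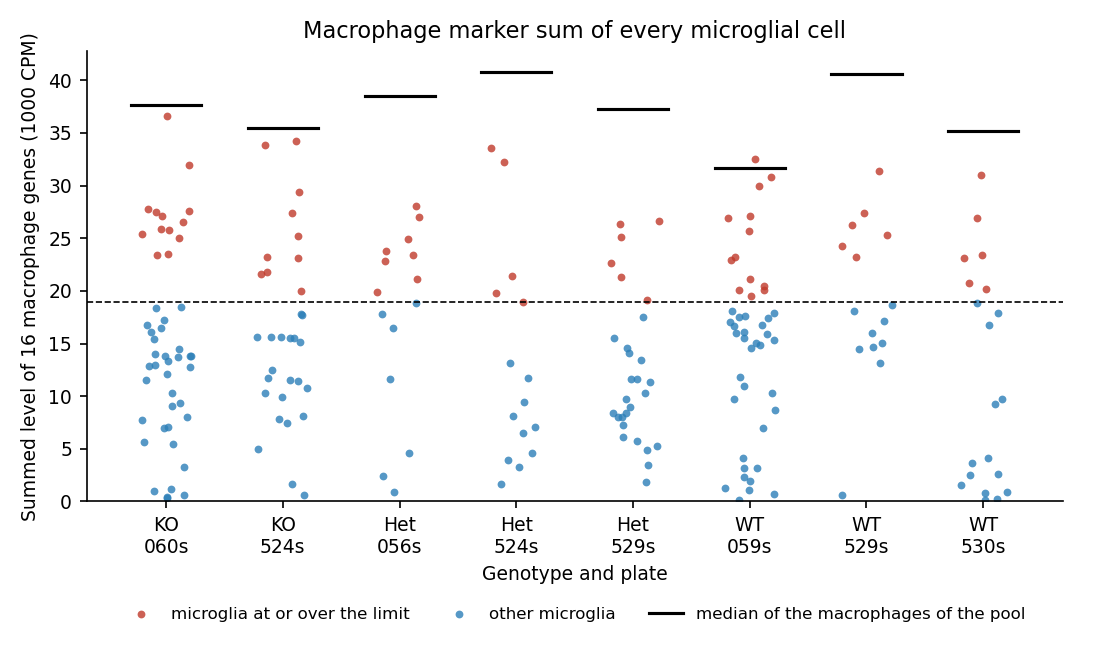
The summed CPM of the 16 macrophage genes (y axis, 1000 CPM) is shown for each microglial cell by genotype and plate (x axis), with the limit as a dashed line and the median of the macrophages of the same pool as a black bar. Each of the 8 pools holds 5 to 13 high-sum cells, and in 7 pools none of them reaches the macrophages' median.

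Depth and the number of genes of high-sum microglia were close to those of the other microglia. High-sum cells had a median of 236785 gene counts (29959 to 2107020), other microglia 247532 (13829 to 1638900) and macrophages 197196 (1488 to 1959090), with ERCC spike-ins and Rn18s, the 18S ribosomal RNA, left out. Within pools the median of high-sum cells was 0.83 times that of other microglia (lowest 0.50, highest 1.87), and higher in 2 of 8 pools. A median of 4367 genes was detected in high-sum microglia, 4777 in other microglia and 3402 in macrophages. Within pools high-sum cells had 1.01 times the genes of other microglia (0.82 to 1.10, higher in 4 of 8 pools) and 1.34 times the genes of macrophages (higher in 8 of 8 pools). With every cell thinned to 50000 gene counts, which left out 2 high-sum cells, 8 other microglia and 25 macrophages, the medians were 3587, 3680 and 2679 genes, and the ratios 0.995 and 1.37. Rn18s took a median of 48.7% of gene counts in high-sum microglia, 44.8% in other microglia and 44.0% in macrophages, and mitochondrial genes took 1.77%, 1.91% and 2.08% of the rest.

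The ERCC spike-ins, RNAs that are usually added in a fixed amount per well, give a measure of RNA per well relative to that amount, which was not given in the sources used here. High-sum microglia had a median of 73.1 gene counts per ERCC count (40.3 to 175), other microglia 76.0 (6.82 to 513) and macrophages 42.9 (12.6 to 185). Within pools the high-sum median was 0.976 times that of other microglia (0.726 to 1.29, higher in 4 of 8 pools) and 1.71 times that of macrophages (1.40 to 2.26, higher in 8 of 8). The direction against other microglia varied between pools: the ratio was 0.907 and 1.05 in the 2 KO pools, 0.726 to 0.841 in the 3 Het pools and 1.06 to 1.29 in the 3 WT pools. Genotype and plate largely go together, with 2 or 3 pools a genotype, and the difference between genotypes was not tested. For comparison with the RNA of 1 cell of each kind, the medians of other microglia and macrophages of a pool were added. High-sum cells came to 48.0% to 77.7% of that sum over the 8 pools (median 60.9%), and 3 of 67 high-sum cells reached the sum of their pool, as did 30 of 148 other microglia and 6 of 400 macrophages.

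**Figure D3:**
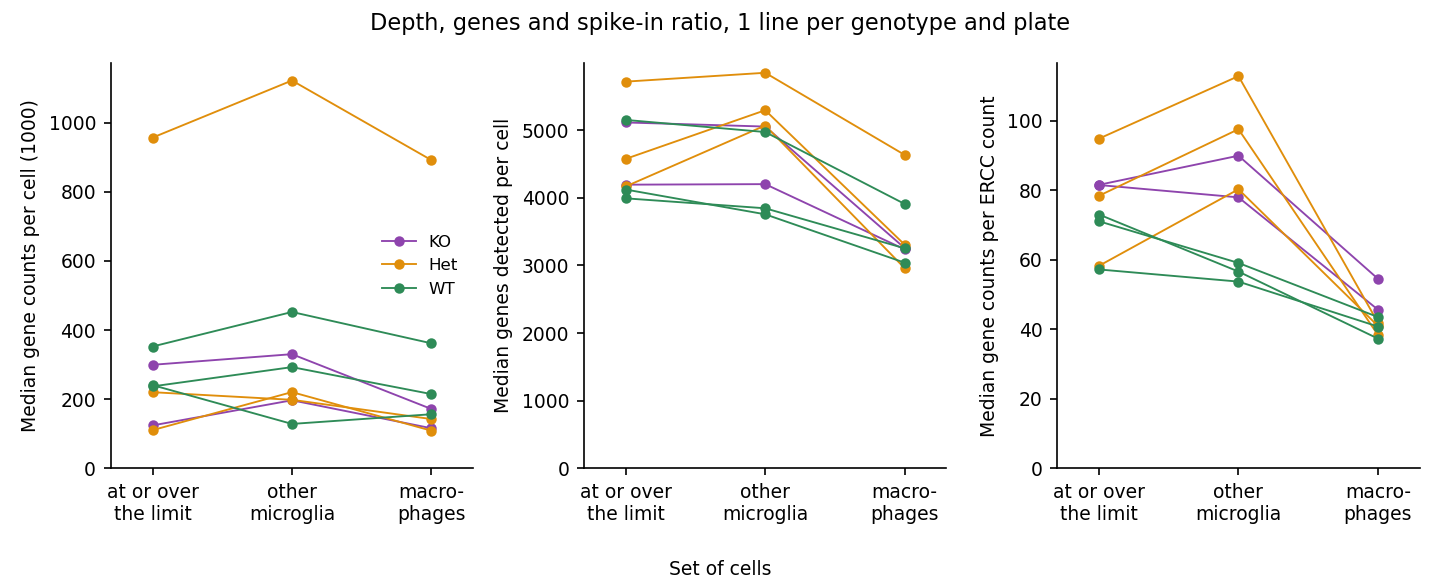
Median gene counts per cell (in units of 1000), median genes detected per cell and median gene counts per ERCC count (y axes) are drawn for high-sum microglia (at or over the limit), other microglia and macrophages (x axis), with 1 line for each of the 8 pools coloured by genotype. High-sum microglia lie near the other microglia in genes and spike-in ratio, and above the macrophages of the same pool in all 8 pools for both.

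Set against the spike-ins in place of the total, the macrophage markers of high-sum microglia were close to the amount in macrophages. The 16 genes gave a median of 1853 counts per 1000 ERCC counts in high-sum microglia (803 to 4477), 897 in other microglia (6.11 to 2642) and 1512 in macrophages (271 to 9176). Within pools high-sum cells had 1.12 times the amount of macrophages (0.846 to 1.56, higher in 6 of 8 pools). The microglia-restricted genes gave 1485 counts per 1000 ERCC counts in high-sum microglia (504 to 4338), 2174 in other microglia (136 to 25082) and 58.4 in macrophages (0.630 to 1324). That was 0.588 times the amount of other microglia within pools (0.429 to 0.982) and lower in 8 of 8 pools. The macrophage amount is tied to the choice of cells, since the choice rests on these genes, whereas the microglia-restricted genes were not used in it but were measured in the same cells. Added together, the medians of other microglia and macrophages gave a sum of which high-sum cells had 54.9% to 92.3% for the macrophage genes and 42.4% to 93.7% for the microglia-restricted genes.

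**Figure D4:**
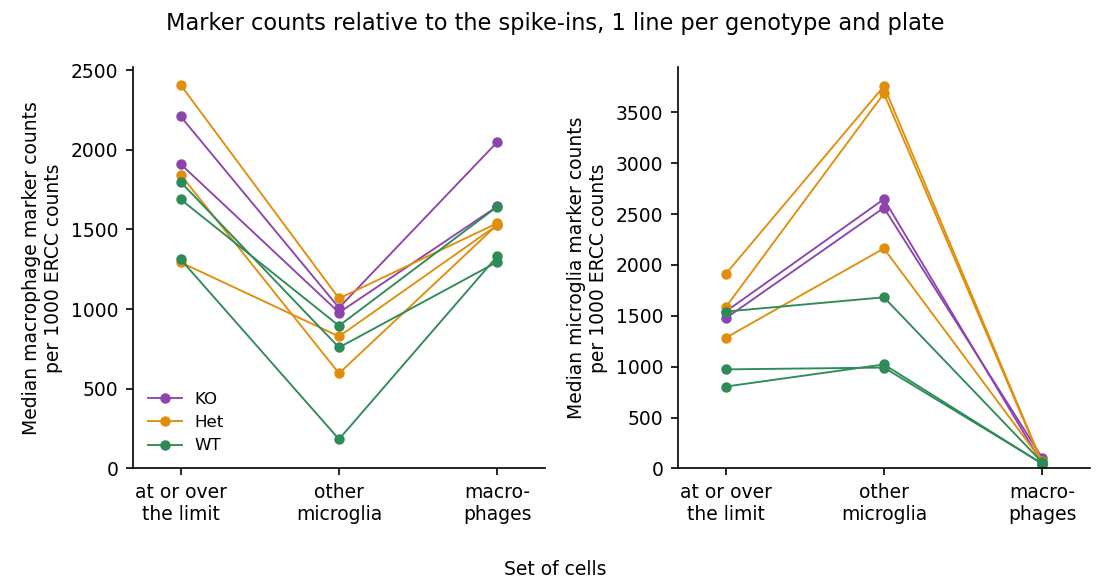
Median counts of the 16 macrophage genes (left y axis) and of the 12 microglia-restricted genes (right y axis) per 1000 ERCC counts are drawn for high-sum microglia, other microglia and macrophages (x axis), with 1 line per pool coloured by genotype. For the macrophage genes high-sum microglia lie above the macrophages in 6 of 8 pools, and for the microglia-restricted genes below the other microglia in 8 of 8.

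Gene by gene, summed counts of each pool were scaled to CPM and the sets compared within the pool. A gene was called apart when the median log2 ratio over pools, on CPM + 1, was at least 1 in size with the same sign in all 8 pools. This is a rule of size and not a test, no p-value goes with it, and since cells were chosen on these counts all of it is description. Against the other microglia, 26 of 6497 measured genes were apart and higher (0.400%), and 39 were apart and lower (0.600%), with a median log2 ratio over all measured genes of -0.03. With edgeR TMM factors 21 genes were higher and 56 lower, and without plate 529s, with fewer pools that must agree in sign, 72 were higher and 88 lower. All 26 higher genes also had a higher mean level in macrophages than in other microglia. The 26 included 10 of the 16 genes whose sum defined the cells, and 4 of 19 measured macrophage genes outside it.

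Among the genes of the choice, Mrc1 had 4780 to 7625 CPM over the pools of high-sum microglia (median 5494), 998 to 4287 CPM in other microglia (median 2302) and 6156 to 9593 CPM in macrophages (median 7594). In single cells Mrc1 ran from 2164 to 13990 CPM in high-sum microglia, from 8.29 to 7098 CPM in other microglia and from 836 to 23285 CPM in macrophages. Stab1 had 3939 to 7643 CPM over the pools of high-sum microglia, 1384 to 3785 CPM in other microglia and 6456 to 11378 CPM in macrophages. For both receptors every pool of high-sum microglia lay above every pool of other microglia, and the high-sum pools overlapped those of macrophages. All genes of this paragraph belong to the sum by which the cells were chosen. Their levels against other microglia and macrophages are therefore tied to the choice and are no separate result. Pf4, a platelet chemokine that these macrophages also make, had a median of 693 CPM in high-sum pools, 272 CPM in other microglia and 933 CPM in macrophages. Cd209f, a C-type lectin, was detected in 70.1% of high-sum cells, 57.4% of other microglia and 67.2% of macrophages, and its pool median was 652, 126 and 575 CPM in these 3 sets. Folr2, the folate receptor of macrophages, was the 1 gene of the choice called apart from macrophages, with 38.4 to 138 CPM in high-sum pools and 111 to 278 CPM in macrophage pools.

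Macrophage genes outside the choice were also higher, by less. Their median log2 ratio to other microglia was 0.70 over 19 measured genes, 16 with a median above 0, and to macrophages -0.71, with 18 below 0. The 4 called apart from other microglia were Ednrb, the endothelin B receptor, Cd36, a scavenger receptor for fatty acids, Mgl2, a galactose-binding lectin, and Fcgrt, the neonatal Fc receptor. Fcgrt had 2293 to 3390 CPM in high-sum pools (median 2762), 927 to 2257 CPM in other microglia (median 1444) and 3485 to 4714 CPM in macrophages (median 4015), so its 3 sets did not overlap. Ednrb had pool medians of 509, 251 and 975 CPM and Mgl2 of 325, 158 and 456 CPM in high-sum microglia, other microglia and macrophages. Members of the list lay close to other microglia too. Lyz2, the lysozyme of macrophages and monocytes, had pool medians of 3726, 2265 and 7975 CPM in the same order of sets, with a log2 ratio to other microglia of 0.45 that was positive in 6 of 8 pools. Apoe, the lipid carrier, had 38585, 28915 and 71706 CPM, with a log2 ratio of 0.32. Ltc4s, an enzyme of leukotriene synthesis, was at 247, 254 and 223 CPM and hardly separated the sets. Within the pool the summed level of this list was higher in high-sum than in other microglia in 7 of 8 pools (median ratio 1.29), the exception being Het cells of plate 056s at 0.754. That sum had a median of 48479 CPM per high-sum cell, most of it Apoe, so its ratio rests largely on 1 gene.

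Microglia-restricted genes were at a lower level than in other microglia and far above macrophages. All 12 measured genes had a median log2 ratio to other microglia below 0, from -0.17 for P2ry13 to -1.54 for Sall3 (median -0.61). Of the 12, 0 were called apart, beside 0.600% of all measured genes apart and lower. In all 8 pools 4 of them were lower (Gpr34, Sparc, Olfml3 and Adgrg1). P2ry12, the purinergic receptor that senses nucleotides, had 1975 to 6459 CPM over high-sum pools (median 3223), 2344 to 7752 CPM in other microglia (median 6531) and 258 to 443 CPM in macrophages (median 368). Tmem119 had 4451 to 5889 CPM in high-sum pools (median 4890), 5096 to 9689 CPM in other microglia (median 6087) and 8.56 to 439 CPM in macrophages (median 103). High-sum pools overlapped those of other microglia for both genes and lay above every macrophage pool. Sall1 was detected in 86.2% of high-sum microglia, 86.4% of other microglia and 5.33% of macrophages among cells thinned to 50000 counts, with log2 ratios of -0.50 to other microglia and 6.71 to macrophages. Sparc, a matrix glycoprotein made by microglia, had pool medians of 3847 CPM in high-sum microglia, 6814 CPM in other microglia and 106 CPM in macrophages.

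The place of each gene between the other microglia (0%) and the macrophages (100%) was taken from mean levels over pools, for genes at least 2-fold apart between these 2 sets. Microglia-restricted genes lay at 16.5% (P2ry13) to 45.5% (Gpr34) with a median of 35.3% over 12 genes, and Tmem119 stood at 22.9% and P2ry12 at 40.2%. The 16 genes of the choice lay at 21.7% (Ms4a6c) to 78.3% (Cd209f) with a median of 54.2%. The 13 macrophage genes outside the choice lay at 16.2% (Ms4a4a) to 109% (Cd209b) with a median of 41.8%. Cd209b had a count in 14.9% of high-sum cells and was not a measured gene by the filter, so its place rests on few cells. Genes of 1 program did not share 1 place: Mgl2 was at 81.4% and Lyz2 at 18.4%.

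**Figure D5:**
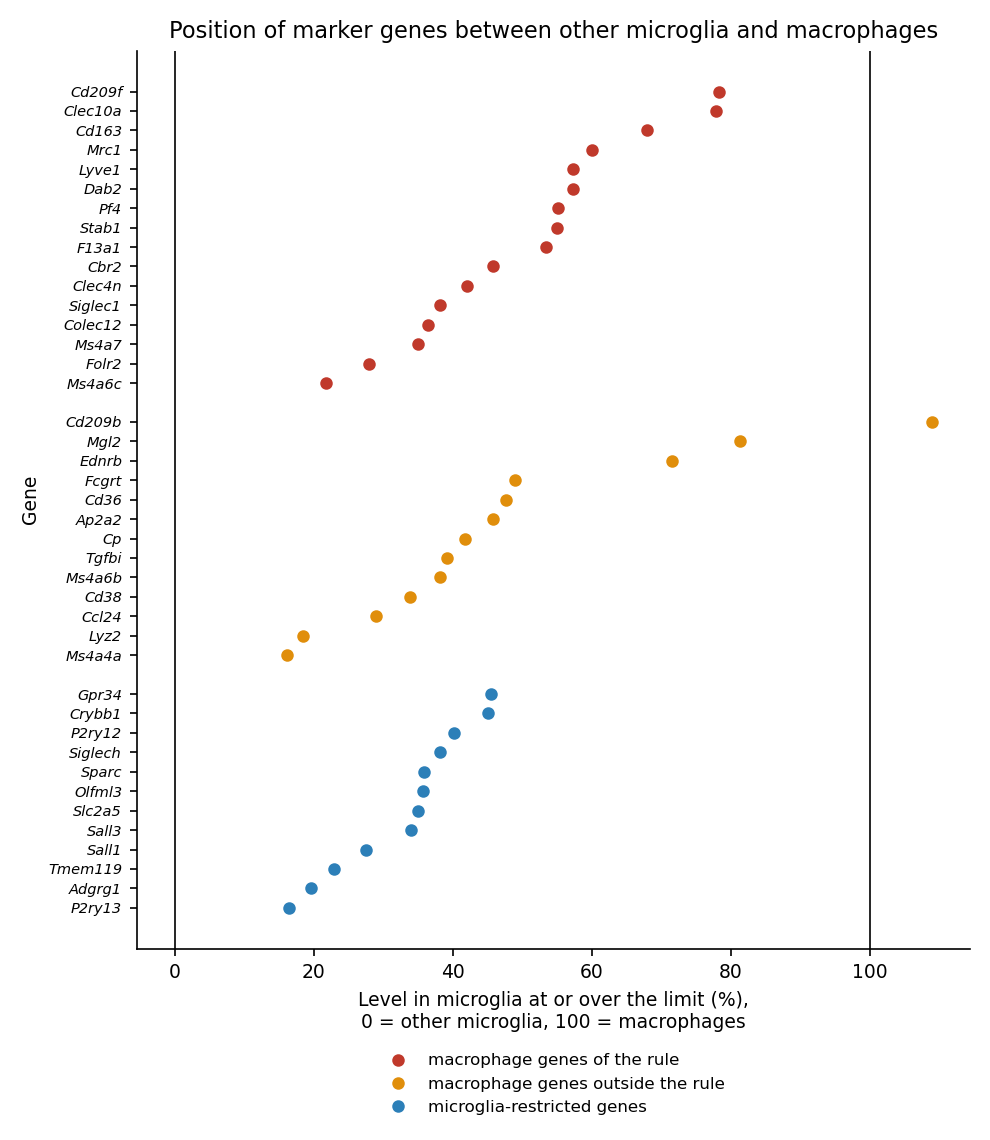
Each point gives the level of a gene in high-sum microglia (x axis, percent) on a scale on which the mean over pools of other microglia is 0 and that of macrophages 100, for 41 genes in 3 lists (y axis). Microglia-restricted genes cover 16.5% to 45.5% and macrophage genes outside the choice 16.2% to 109%.

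Shared myeloid genes split by which set had more of them. Csf1r, the growth factor receptor both cell types need, had pool medians of 19009, 17466 and 14099 CPM in high-sum microglia, other microglia and macrophages. C1qa, C1qb and C1qc had log2 ratios to other microglia of -0.03, -0.06 and 0.04. Cx3cr1, the fractalkine receptor, had pool medians of 5252, 7783 and 1910 CPM in the same order of sets. None of the 12 shared genes was called apart from other microglia, beside 0.400% (higher) and 0.600% (lower) of all measured genes. Cx3cr1, Selplg and Trem2 were among the 4 shared genes called apart and higher than in macrophages, beside 2.62% of all measured genes.

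Outside the lists, genes apart and higher in high-sum than in other microglia were led by Gprc5c, an orphan receptor of the G protein-coupled family, with 93.4 to 440 CPM over high-sum pools (median 227), 0.634 to 159 CPM in other microglia (median 59.7) and 126 to 609 CPM in macrophages (median 262). Cxcr3, a chemokine receptor, had pool medians of 114 CPM in high-sum microglia, 20.1 CPM in other microglia and 191 CPM in macrophages, and Npr1, a receptor for natriuretic peptides, had 98.9, 17.5 and 110 CPM. Igfbp4, which binds insulin-like growth factors, had 2024, 852 and 3105 CPM. Snx2, a sorting nexin of endosomes, had 989, 449 and 1208 CPM, Tmem106a 468, 177 and 580 CPM and Cd4 154, 94.1 and 314 CPM. Incenp, a subunit of the chromosomal passenger complex, Dop1a and Men1 stood out from this order, with pool medians in high-sum microglia of 82.9, 65.1 and 96.6 CPM that were above those of macrophages at 73.0, 38.3 and 53.0 CPM. Other microglia had 10.7, 22.4 and 24.0 CPM of these genes. Men1 had a count in 34.3% of high-sum cells, 31.8% of other microglia and 25% of macrophages. Incenp was at 0 in 2 pools of other microglia, and exons of Dop1a overlap Pgm3.

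The 39 genes apart and lower were weakly expressed. Their median level was 13.5 CPM in high-sum microglia, 44.8 CPM in other microglia and 23.7 CPM in macrophages, they had a count in a median of 28.4% of high-sum cells, and 28 of the 39 were at 0 in some high-sum pool, so that their ratios depend on the added 1 CPM. Named by size were Kctd21, Sv2a, Slc39a6, Nav2, Papolg, Chn2, Smyd3, Tent5c, Cnot7, Atp8a2, Mief1 and Slc24a3. Atp8a2, a phospholipid flippase, had a count in 40.3% of high-sum microglia, 65.5% of other microglia and 8.75% of macrophages, with pool medians of 29.1, 152 and 0.901 CPM. Sv2a, a vesicle glycoprotein, had counts in 13.4%, 26.4% and 4.5% of these sets.

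Against macrophages, 162 of 6184 measured genes were apart and higher (2.62%) and 42 apart and lower (0.679%), with a median log2 ratio of -0.06. With TMM factors 140 were higher and 77 lower, and without plate 524s 107 were lower. The higher genes included 10 of 12 microglia-restricted genes, all but Crybb1 and Sall3. By size Sall1 was followed by Parvg, a parvin of blood cells, with 119 to 618 CPM over high-sum pools, 270 to 563 CPM in other microglia and 0.198 to 8.50 CPM in macrophages. Adgrg1, an adhesion receptor, had 579 to 1028 CPM in high-sum pools, 782 to 1285 CPM in other microglia and 2.23 to 36.6 CPM in macrophages. F11r, a junctional adhesion molecule, had pool medians of 599, 976 and 10.4 CPM in the 3 sets, Spint1 130, 285 and 1.05 CPM, Arhgap27 235, 230 and 2.46 CPM and Ecscr 153, 262 and 1.76 CPM. Asap3, Slco4a1, Kcnd1 and Cd34 completed the 12 named genes, with counts in 28.4%, 34.3%, 52.2% and 43.3% of high-sum cells, and in 3.5%, 2.5%, 4.5% and 8.5% of macrophages. None of the 162 had a higher mean level in macrophages than in other microglia.

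Genes apart and lower than in macrophages had a median level of 27.9 CPM in high-sum microglia, 40.4 CPM in other microglia and 72.4 CPM in macrophages, and 15 of the 42 were at 0 in some high-sum pool. Anxa2, Smyd3, Sash1, Clu, Clec7a, Samd9l, Neo1, Il18bp, Meaf6, Tiparp, Atg4b and Samhd1 were named by size. Samhd1, a nucleotide hydrolase that restricts viruses, had the highest levels of these, with 38.3 to 258 CPM in high-sum pools (median 77.3), 51.4 to 154 CPM in other microglia (median 107) and 155 to 396 CPM in macrophages (median 251). Clec7a, a receptor for fungal glucans, had 7.58, 58.1 and 55.7 CPM as pool medians of high-sum microglia, other microglia and macrophages, with a count in 16.4%, 33.8% and 30.3% of cells.

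No state-linked list held a gene apart from other microglia, where 0.400% of 6497 measured genes were apart and higher and 0.600% lower. At those shares lists this short would often hold none. None of 9 measured immediate early genes, 8 interferon-response genes, 8 disease-associated microglia genes, 7 genes of inflammatory cytokines and NF-kB or 3 of MHC class II was called apart, with list medians of 0.26, 0.16, -0.49, -0.09 and -0.55 on the log2 scale. Dusp1 and Fos, early genes that dissociation can raise, were at 182 and 208 CPM on average in high-sum microglia and at 179 and 177 CPM in other microglia. Cd9, a tetraspanin, was lower than in other microglia in 8 of 8 pools at 175 CPM in high-sum microglia and 408 CPM in other microglia, beside 7.95 CPM in macrophages. Bst2 and Ifi27l2a, both induced by interferon, were apart and lower than in macrophages, at 182 and 46.7 CPM in high-sum microglia and at 358 and 110 CPM in macrophages.

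Marker lists of other cell types were summed over each pool. The summed level of 8 mural cell genes was 0 to 2.88 CPM over high-sum pools, 0 to 150 CPM in other microglia and 0.0590 to 13.2 CPM in macrophages, and Myh11, Pdgfrb, Rgs5, Kcnj8 and Higd1b were at 0 in the high-sum cells. Endothelial genes summed to 310 to 603 CPM, 227 to 392 CPM and 521 to 1068 CPM in high-sum microglia, other microglia and macrophages. Most of that in high-sum cells was Pltp, a phospholipid transfer protein at 384, 173 and 673 CPM on average in these sets, while Flt1, Cdh5 and Ly6c1 were at 0 in high-sum cells. Oligodendrocyte genes summed to 199 to 694 CPM, 121 to 760 CPM and 498 to 1646 CPM, and astrocyte genes to 46.5 to 308 CPM, 66.4 to 461 CPM and 61.2 to 264 CPM. Dendritic cell genes summed to 14.8 to 261 CPM in high-sum pools (median 82.5), 3.31 to 61.0 CPM in other microglia (median 33.3) and 4.45 to 95.2 CPM in macrophages (median 71.3), with Clec9a and Ccr7 at 0 in high-sum cells. Lymphocyte genes summed to 64.5 to 137 CPM in high-sum pools (median 98.1), 12.4 to 105 CPM in other microglia (median 63.3) and 38.6 to 120 CPM in macrophages (median 73.2), with Cd3e, Trac, Ms4a1, Nkg7 and Gzma at 0 in high-sum cells. Against other microglia, 1 of 8 lymphocyte genes and 1 of 7 dendritic cell genes passed the filter of measured genes, so each sum may rest on few genes. The part of these lists in the differences above was not tested.

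In the microglia of 7 of 8 pools a higher macrophage sum went with a lower microglial sum. Spearman's correlation between the macrophage sum and the microglial sum was -0.35 over the 67 high-sum cells and -0.38 over the 148 other microglia, and -0.02 over the 400 macrophages. Within pools it ran from -0.82 over 28 Het microglia of plate 529s to 0.00 over 20 WT microglia of plate 530s. Both sums are shares of 1 total, so a higher share of 1 can lower the other, and cells of a pool share a plate and a library preparation. The macrophage sum had a correlation of -0.03 with total gene counts in high-sum cells.

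Well positions and sex-linked genes gave values that bear on RNA from other wells. Macrophages made up 62.6% of the deposited cells in the 8 wells around high-sum microglia and 58.5% around other microglia, and were the larger share around high-sum cells on 4 of 6 plates. On plates 524s and 529s 1 pool was high in Xist and the other in 4 Y-linked genes. Y-linked counts were found in 1 of 16 high-sum microglia, 2 of 43 other microglia and 2 of 40 macrophages of the Xist-high pools there. Their level in the high-sum cells of the Xist-high pool was 0.137% of that in the Y-high pool on plate 524s, and there were no such counts in 6 cells on plate 529s. In other microglia this level was 0.0811% and 0.120% on these plates, and in macrophages 0.143% and 0.215%. Each of these levels above 0 rested on 1 Y-linked count, so they do not rank the sets. In the Y-high pools of both plates Xist counts were found in 0 of 11 high-sum microglia, 2 of 19 other microglia and 7 of 42 macrophages. The Xist level of other microglia in the Y-high pool of plate 524s was 1.29% of that in the Xist-high pool. It rested on 26 counts, 25 of them in 1 cell. Xist counts were also found on plates whose only pool was Y-high. On plate 056s they were in 1 of 8 high-sum microglia, 1 of 7 other microglia and 6 of 35 macrophages. On plate 059s they were in 1 of 13, 1 of 31 and 5 of 47, and on plate 060s in 0 of 13, 0 of 34 and 1 of 98. Such counts are therefore no measure of RNA passed between pools of 1 plate alone. They do not measure RNA passed among cells of the same pool, and neither passage was tested.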

How the data were processed

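The authors deposited 1 table of whole-number counts per gene and cell, with no normalisation, for 53546 gene symbols and 92 ERCC spike-ins. STAR is named in the submitters' processing notes. Genome build, annotation, counting program and any filter on cells are not given in the sources used here, and 50067 symbols were found in GENCODE M21, used for overlapping exons only. Genotype, cell type, plate and well were taken per the labels. No label named an animal, so a genotype within a cell type was 1 sample and no test was run.

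The 16 genes and their limit, the 20 further gene lists and the members were chosen with earlier results of these data known. ERCC and Rn18s counts were left out of totals. Gene counts per cell ran from 1488 to 2107020 (median 213524). A gene was measured at 20 CPM or more on average over pools and with a count in 25% or more of cells, in either set, and was called apart at 2-fold with 1 sign in every pool with at least 3 cells in each set. Up to 12 genes in each direction were named, without the 16 genes, predicted genes, pseudogenes, ribosomal protein, mitochondrial and sex-linked genes. Cells were thinned to 50000 counts without replacement. Intervals are exact (Clopper-Pearson), at 95%, and a count of 0 was given a limit of 3 counts. No doublet caller was run and no cell was left out. Of 208 list entries, 47 had exons that overlap another gene, and whether counting used strand was not given. These include P2ry12, Stab1, Dab2, Folr2, F13a1, Ms4a6c, Csf1r, Cx3cr1 and Pltp. Named genes outside the lists overlap other genes too, among them Dop1a, Npr1, Cnot7, Atp8a2 and Il18bp. Not every list gene is reported here by name, and the counts include those that are not. The 14 cells labelled 7 entered no comparison. The contrast was tested on simulated data, with changes above the 2-fold limit in well-expressed genes only. The simulation had no differences between pools and no choice of cells by a sum. It therefore does not cover weakly expressed genes or the effect of the choice. Python 3.11.15, pandas 2.3.3, numpy 2.4.6, scipy 1.17.1 and matplotlib 3.10.9 were used, with edgeR 4.0.16 and DESeq2 1.42.0 in R 4.3.3 for alternative scalings only.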

Additional observations from a re-analysis of the deposited data

Results flagged for a closer look

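Of the 14 cells labelled only 7, which entered no comparison, 8 were at or over the limit of 18900 CPM. Their macrophage sum had a median of 20481 CPM (3143 to 49417) and their microglial sum a median of 5536 CPM (1036 to 33987), at a median of 25329 gene counts.

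In 25 sets of 8 pools searched for a pool far from the rest, 5 values stood out, where chance flags about 1 set in 20 by the construction of the limit used. The sets share cells and pools, so the 5 values are not independent. High-sum microglia had 1.87 times the gene counts of other microglia in WT cells of plate 529s. Their Rn18s share was 1.37 times that of other microglia and 1.39 times that of macrophages in WT cells of plate 059s. In WT cells of plate 530s their macrophage sum was 7.47 times that of other microglia, and 7.15 times per ERCC count, over 6 high-sum cells and 14 others. The high-sum median there was 23292 CPM, inside the 21392 to 26534 CPM over all pools. The other microglia had 3119 CPM, the lowest of a range up to 15091 CPM, so the ratio reflects low values in those cells.

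In 4 measures all pools of a genotype went one way and all pools of another the opposite way. The difference between genotypes was not tested, and with 2 or 3 pools a genotype it rests on few values. Several measures and pairs of genotypes were searched, and how often chance gives such a split was not worked out. Genes detected in high-sum over other microglia had a median ratio of 0.864 in Het and 1.04 in WT. Gene counts per ERCC count had ratios of 0.804 in Het and 1.20 in WT. Genes detected in thinned cells had ratios of 0.961 in KO and 1.01 in WT. The Rn18s share over macrophages had ratios of 0.979 in KO and 1.05 in Het.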

How the results depend on the processing

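Of 144 alternatives to 10 measures and counts, 115 stayed within the spread over pools or within 1.5 times of a count, and 29 moved. No list median changed its sign. For genes apart, the number of genes was compared and not which genes they were. In thinned cells 18 of the 26 genes higher than in other microglia and 10 of the 39 lower were called again. Against macrophages these were 129 of the 162 higher and 14 of the 42 lower. With TMM factors 21 of the 26 and 39 of the 39 were called again, and at the higher limit 12 and 18. With the limit kept at 18900 CPM, the 67 high-sum cells became 11 with Rn18s kept in the total. They became 29 without the highest of the 16 genes in each cell. Both changes lower every sum: in high-sum cells Rn18s took a median of 48.7% of gene counts and that gene 27.7% of the sum. The number was 38 at a limit of 23625 CPM and 107 at 15120 CPM. Depth, genes detected, spike-in ratio and both list medians stayed within their spread throughout, although the spike-in ratio lay on both sides of 1 without 1 plate (0.907 to 1.05). Without each plate in turn, the list medians ran from -0.64 to -0.56 (microglia-restricted) and from 0.59 to 0.80 (macrophage genes outside the choice).

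Counts of genes apart moved under some alternatives. Against other microglia, the 26 higher genes became 41 at the higher limit, 61 at the lower limit and 59 at 1.5-fold, and 33 to 72 without 1 plate (44 without 059s, 41 without 060s, 53 without 524s, 72 without 529s). The 39 lower genes became 23 at a pseudocount of 10 CPM, 92 without each gene's top cell, 172 and 10 at the higher and lower limit, 67 without the filter, 66 at 1.5-fold, and 46 to 89 without 1 plate (69 without 056s, 89 without 524s, 88 without 529s). Against macrophages, the 162 higher genes became 96 without top cells. The 42 lower genes became 77 with TMM factors, 230 without top cells, 143 at the higher limit, 123 without the filter, 100 at 1.5-fold, and 52 to 107 without 1 plate (107 without 524s, 101 without 529s, 67 without 530s). Leaving out a plate leaves fewer pools that must agree in sign. The higher limit left 6 pools with at least 3 high-sum cells. The cause of the other shifts was not tested. With TMM factors 21 genes were higher and 56 lower than in other microglia, and 140 higher and 77 lower than in macrophages, while the median of all genes went to -0.13 and -0.17 on the log2 scale.

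Ratios between sets were taken within pools. Medians, ranges and counts over all cells of a set, and the correlations over a whole set, mix the pools. The place of each gene between the sets uses means over pools. Replicate numbers only name cells and pair nothing. Reads are PCR copies, so intervals cover counting error only.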
